A study of Oniscidea with 6 samples.

Results

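Alpha-tubulin is one of the paired building blocks of the microtubule. Each alpha chain binds a beta chain, and the dimers polymerise into hollow filaments that carry motor traffic, form the mitotic spindle and make up the core of cilia. Animals encode alpha-tubulin in several near-identical genes, called isotypes, which differ mostly in the acidic tail that modifying enzymes act on. The 7 alpha-tubulin symbols Tuba1a, Tuba1b, Tuba1c, Tuba3a, Tuba3b, Tuba4a and Tuba8 were taken by name from a table of 24421 features, and every one of the 7 was in the table and had reads.

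The RNA came from fresh tissue of woodlice (Oniscidea, terrestrial isopod crustaceans), in 3 samples labelled rolling and 3 labelled stretching, and no treatment was given. The study asked which genes differ between the curled and the extended state, with Hox genes in its title. Species, sex, age and tissue are not in the labels, and nothing in them says that each sample was a separate animal. The p-values below therefore measure the spread between these samples only, and that spread may be technical. The genes carry mouse symbols, and a symbol is here only the name under which reads were counted, not an identified woodlouse gene.

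The libraries held 403971 to 1122154 counted reads. Values are normalised read counts, meaning reads divided by 1 size factor per library, and 3 reads correspond to a value of 1.58 to 3.67. Libraries differed in composition as well as in depth. Within a group, the log2 values of any pair of libraries had a Pearson correlation of 0.90 to 0.93. Between a rolling and a stretching library the correlation was negative, at -0.34 to -0.31. The groups thus differed far beyond the alpha-tubulins, and the cause was not tested. Rn45s, the mouse name of the ribosomal RNA precursor, took 34.7% of the reads of rolling 3, 13.0% of rolling 2 and 4.65% of rolling 1, and between 1.17% and 7.30% of the stretching libraries. Lars2, a mitochondrial leucyl-tRNA synthetase, took 26.0% of stretching 3 and at most 5.53% elsewhere.

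The isotype that led the alpha-tubulin reads was different in the 2 groups. Tuba3b led in all 3 rolling libraries with 49.8% ± 2.50 of the alpha-tubulin reads (SD, n = 3), and Tuba8 led in all 3 stretching libraries with 50.2% ± 7.49. Tuba3b, Tuba1b, Tuba1c and Tuba4a rose in rolling, Tuba8 and Tuba3a fell, and Tuba1a did not pass the test. A test is called here at an adjusted p under 0.05 from limma on log2(value + 1), with Benjamini-Hochberg adjustment over the 2948 features whose mean value was at least 10. Of those features 75.2% were called, 37.8% as higher and 37.4% as lower in rolling, so 4 higher and 2 lower among 7 is close to what the whole table gave. The groups did not overlap for 6 of the 7, and for 78.7% of all tested features. In the authors' deposited table, 5 of the 7 had an adjusted p under 0.05, as did 37.2% of the features with an adjusted p, and the other two were Tuba1a and Tuba3a. The mean of Tuba1b and of Tuba1c reached 10 through the rolling libraries alone, so these 2 had to be higher in rolling to be tested, and the count is a description. Of all tested features 71.3% entered in this way, through 1 group alone. The median log2 fold change of the 7 was 1.57, beside 0.10 over all tested features, and their median size without sign was 2.50, beside 2.82.

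**Figure D1:**
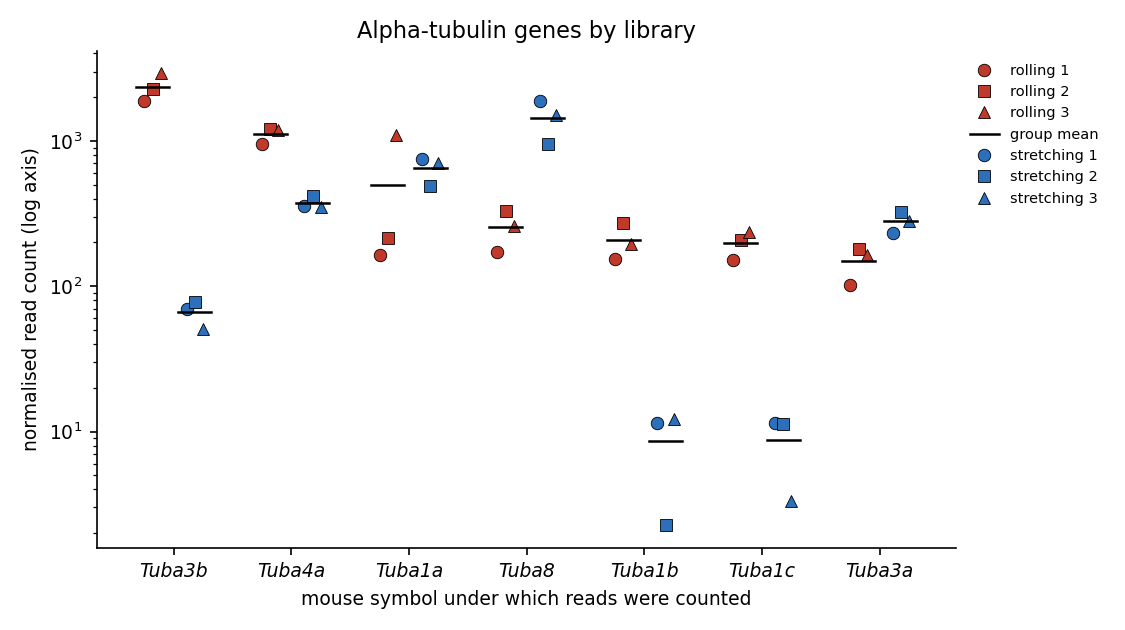
Normalised read count (log axis) of the 7 alpha-tubulin genes in each of the 6 libraries; each symbol is a library and black bars are group means. Rolling and stretching values are apart for every gene but Tuba1a, whose value in rolling 3 (1104) lies above all stretching values.

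Tuba3b belongs to a pair of mouse genes, Tuba3a and Tuba3b, that encode the same protein and are known mainly from testis. Its value was 1883, 2275 and 2915 in rolling 1, 2 and 3 and 69.9, 78.1 and 51.0 in stretching 1, 2 and 3. The lowest rolling value was far above the highest stretching value, and the group means were 2358 ± 521 and 66.3 ± 13.9 (SD, n = 3). The log2 fold change was 5.13 (standard error 0.38, adjusted limma p 3.4e-06), and the rolling mean was 35.5 times the stretching mean. The change rests on 8113 reads in rolling and 188 in stretching. A change of at least this size was found in 17.4% of all tested features.

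Its partner Tuba3a went the other way. It stood at 101, 180.0 and 163 in rolling 1, 2 and 3 and at 234, 324 and 279 in stretching 1, 2 and 3. The groups did not overlap, but the difference was small, from 279 ± 45.0 in stretching to 148 ± 41.5 in rolling (SD, n = 3), a log2 fold change of -0.94 (standard error 0.37, adjusted limma p 0.043). The call was lost without rolling 1 (adjusted limma p 0.086) and without stretching 1, 2 or 3 (0.059, 0.104 and 0.090), with scaling to library totals (0.146) and without the filter (0.115), and in the authors' deposited table the adjusted p was 0.061. The size factor cancels in the ratio of the 2 genes. Tuba3b had 12.6 to 18.6 reads for each Tuba3a read in rolling, whereas Tuba3a had 3.34, 4.14 and 5.48 reads for each Tuba3b read in stretching 1, 2 and 3. The log2 of the ratio of Tuba3a to Tuba3b thus differed by -6.09 (standard error 0.27) between the groups. Summed, the pair had a mean of 2506 ± 548 over the rolling and of 345 ± 50.8 over the stretching libraries (SD, n = 3).

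Tuba1a, Tuba1b and Tuba1c are neighbouring genes in the mouse genome with nearly identical products, Tuba1a being the main alpha-tubulin of developing neurons and the other two being expressed in many tissues. Tuba1b had 155, 271 and 195 in rolling 1, 2 and 3 and 11.5, 2.26 and 12.2 in stretching 1, 2 and 3. Tuba1c had 152, 207 and 235 in rolling and 11.5, 11.3 and 3.32 in stretching, in the same order of libraries. Both were thus higher in every rolling library than in any stretching library, and the stretching values rest on 25 reads each over the 3 libraries.

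Tuba1b rose by 4.64 on the log2 scale (standard error 0.56, adjusted limma p 6.1e-05) and Tuba1c by 4.49 (standard error 0.48, adjusted limma p 2.7e-05). Since both entered the test through rolling alone, these p-values are conditional on a high rolling mean. With no filter and all 18260 features with a read tested, the adjusted limma p was 4.6e-05 for Tuba1b and 2.3e-05 for Tuba1c. Without stretching 2, where 2 reads of Tuba1b were counted, its log2 fold change was 3.98, and with a pseudocount of 8 it was 3.72 for Tuba1b and 3.64 for Tuba1c. The ratio of reads adjusted for depth was 21.6 for Tuba1b (95% counting interval 14.5 to 33.6) and 21.0 for Tuba1c (14.1 to 32.6). These intervals cover counting error only.

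Tuba1a did not share this pattern. Its value was 164, 213 and 1104 in rolling 1, 2 and 3 and 754, 488 and 699 in stretching 1, 2 and 3. Rolling 1 and 2 lay below every stretching library and rolling 3 lay above all of them, at 5.85 times the mean of the other two. The rolling mean was 494 ± 529 and the stretching mean 647 ± 140 (SD, n = 3), and the log2 fold change of -0.91 had a 95% interval from -2.45 to 0.64 (adjusted limma p 0.25). Without rolling 3 it was -1.76 (adjusted limma p 0.0042). Rolling 3 is the library with 34.7% of its reads on Rn45s and the largest total, and the part of these in the value of Tuba1a was not tested. The residual spread of Tuba1a, an SD of 1.08 on the log2 scale, was reached or exceeded by 8.41% of tested features.

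Tuba4a, whose gene does not encode the terminal tyrosine that most other alpha-tubulins carry, was the steadiest of the 7. It stood at 951, 1206 and 1192 in rolling 1, 2 and 3 and at 356, 417 and 349 in stretching 1, 2 and 3, with no overlap. The means were 1116 ± 143 and 374 ± 37.1 (SD, n = 3), a log2 fold change of 1.57 (standard error 0.37, adjusted limma p 0.0036). With scaling to library totals the log2 fold change was 1.39 and the call was lost (adjusted limma p 0.071). Its residual SD on the log2 scale was 0.17, and 97.4% of tested features had one at least as large.

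Tuba8 is the most divergent of the mouse alpha-tubulins and lacks the lysine on which the others are acetylated. It had 171, 329 and 261 in rolling 1, 2 and 3 and 1868, 953 and 1518 in stretching 1, 2 and 3. Every stretching library was well above the highest rolling library. Tuba8 fell by 2.50 on the log2 scale in rolling (standard error 0.44, adjusted limma p 0.00068), from 1447 ± 462 to 254 ± 79.2 (SD, n = 3), and the call was kept in 16 of 16 alternatives.

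**Figure D2:**
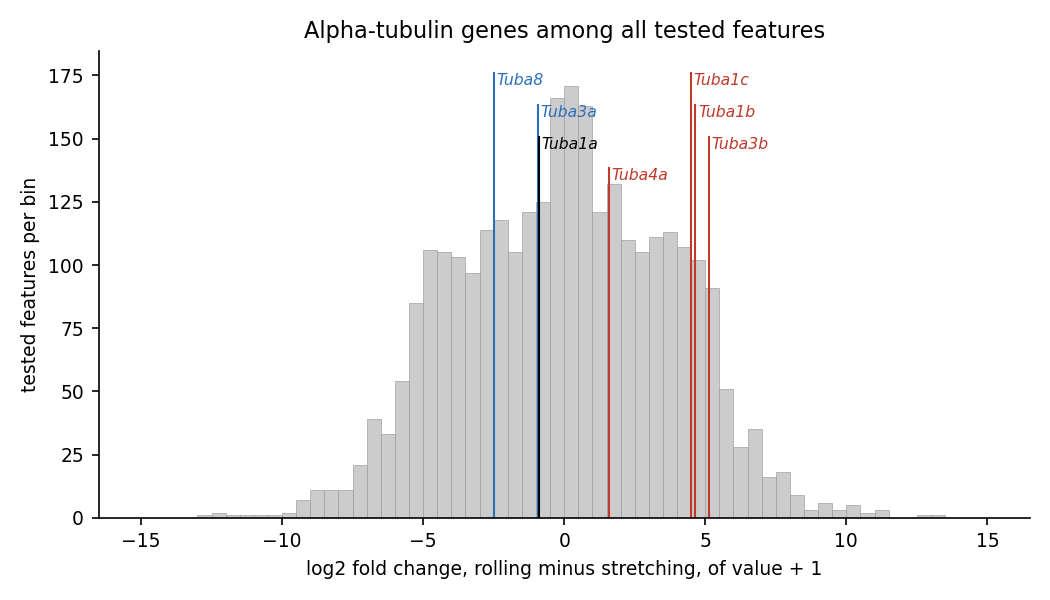
Number of tested features in bins of the log2 fold change, rolling minus stretching, of value + 1, with vertical lines at the 7 alpha-tubulin genes (red rose, blue fell, black did not pass the test); line heights carry no value. Tuba3b at 5.13 and Tuba8 at -2.50 are the ends of the family, and features on both sides reach farther.

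As a share of the alpha-tubulin reads of a library, which no size factor touches, Tuba3b held 52.6%, 48.6% and 48.1% in rolling 1, 2 and 3 and 2.12%, 3.44% and 1.75% in stretching 1, 2 and 3. The share of Tuba8 was 4.79%, 7.04% and 4.30% in rolling and 56.5%, 41.9% and 52.1% in stretching. Neither gene's shares overlapped between the groups. The difference of the mean shares was 47.3 percentage points for Tuba3b and -44.8 for Tuba8.

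Tuba4a held 24.0% ± 3.78 in rolling and 13.7% ± 4.05 in stretching (SD, n = 3), which made it the second gene in rolling and the third in stretching. Tuba1a held 4.60%, 4.55% and 18.2% in rolling 1, 2 and 3 against 21.5% to 24.0% in stretching, so that its share, unlike its value, did not overlap between the groups. Tuba3a held 3.12% ± 0.631 and 10.3% ± 3.64. Tuba1b and Tuba1c held 4.44% ± 1.29 and 4.18% ± 0.280 in rolling, and each held at most 0.498% of a stretching library. For each of the 7 shares the exact two-sided permutation p was 0.1, the smallest that 3 against 3 samples can give, so none could pass 0.05. The 7 shares add up to 100% and are not independent of each other.

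The size of several share differences rested on Tuba3b being part of the sum. Once it was left out, the share of Tuba4a was 56.1%, 50.1% and 37.9% in rolling 1, 2 and 3 and 11.0%, 19.0% and 12.2% in stretching 1, 2 and 3, and the difference of the means went from 10.3 to 34.0 percentage points. The share of Tuba1a in rolling 3 was then 35.1% and its groups overlapped. Those of Tuba3a overlapped too, at 5.18% to 7.48% in rolling and 7.23% to 14.7% in stretching (exact two-sided permutation p 0.2). The differences of Tuba1b and Tuba1c went from 4.15 and 3.86 to 8.56 and 8.01 points, and that of Tuba8 was -40.7.

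**Figure D3:**
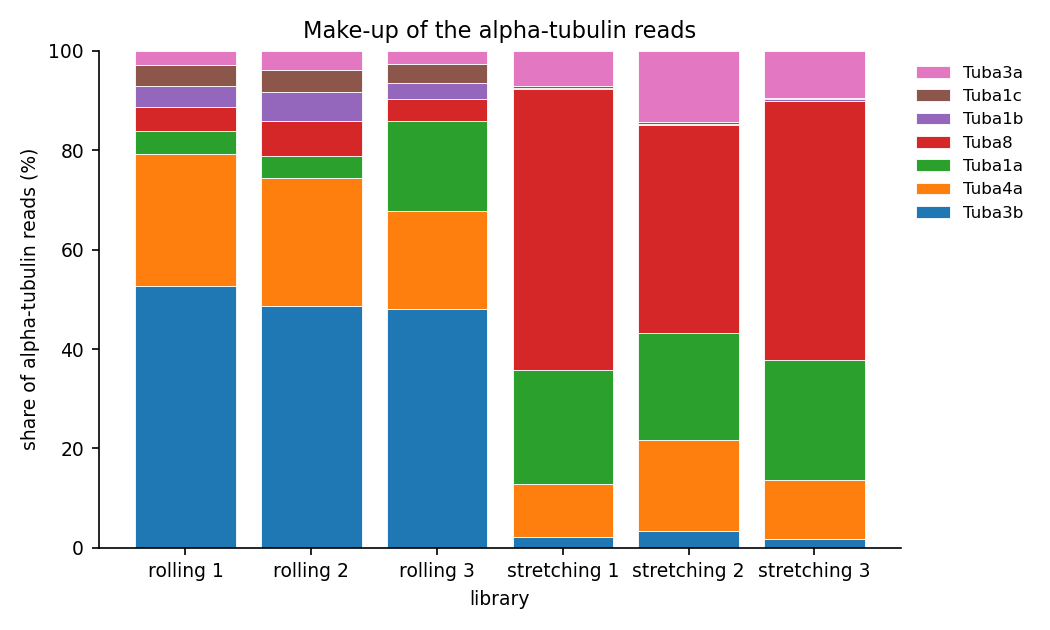
Share of the alpha-tubulin reads (%) held by each of the 7 genes in each library, stacked to 100%. Tuba3b is the largest segment in the 3 rolling libraries (48.1% to 52.6%) and Tuba8 in the 3 stretching libraries (41.9% to 56.5%).

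The reads were spread over the family about as unevenly in both groups. The effective number of members, which is 7 when all hold equal shares and 1 when a single member holds all, was 2.80, 3.16 and 3.25 in rolling 1, 2 and 3 and 2.57, 3.61 and 2.83 in stretching 1, 2 and 3. These ranges overlap. The order of reads was Tuba3b, Tuba4a, Tuba1a, Tuba8, Tuba1b, Tuba1c and Tuba3a by the rolling means. In rolling only Tuba3b stood clear of its neighbour, and the values of each later neighbouring pair overlapped. Within a library, Tuba4a was above Tuba1a, Tuba8 above Tuba1b and Tuba1c above Tuba3a in all 3 rolling libraries. Tuba1b was above Tuba1c in 2 of them. Tuba1a was above Tuba8 in rolling 3 alone, which set the place of Tuba1a among the means. In stretching the order was Tuba8, Tuba1a, Tuba4a, Tuba3a, Tuba3b, Tuba1c and Tuba1b, and only the last 2 overlapped. These orders are of reads and were not divided by gene length, so they do not rank levels per molecule. Of the 21 pairs of members, 8 had one order in all rolling libraries and the opposite order in all stretching libraries, among them Tuba3b with Tuba8, Tuba4a with Tuba8 and Tuba1a with Tuba3b. Over all pairs of tested features 45.8% were inverted in this way.

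The total over the family differed less between the groups than each member that passed the test. The 7 genes summed to 3578, 4680.3 and 6064 in rolling 1, 2 and 3 and to 3306, 2273 and 2911 in stretching 1, 2 and 3. The groups did not overlap, but rolling 1 and stretching 1 lay close together. The means were 4774 ± 1246 and 2830.2 ± 521 (SD, n = 3), a difference of 0.74 on the log2 scale (standard error 0.27), for which no p is given because it is a score over chosen genes. As a percentage of counted reads the family held 1.26%, 0.917% and 0.497% of rolling 1, 2 and 3 and 0.756%, 0.497% and 0.483% of stretching 1, 2 and 3, and on this scale the groups overlapped. Without Tuba3b the rolling sum was 2417 ± 727 and the stretching sum 2764 ± 527 (SD, n = 3), also with overlap. In RNA of whole tissue, fewer cells of a type and less RNA per cell cannot be told apart.

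The sum of beta-tubulin, the partner in the dimer, moved the other way, through Tubb4a for the most part. The 8 beta-tubulin symbols summed to 894, 849.6 and 1243 in rolling 1, 2 and 3 and to 2642, 4893 and 4551 in stretching 1, 2 and 3. Of these Tubb4a held 304, 351 and 326 in rolling 1, 2 and 3 and 2114, 4351 and 3988 in stretching 1, 2 and 3. There were 4.0, 5.51 and 4.88 alpha reads for each beta read in rolling 1, 2 and 3, and 1.25, 0.465 and 0.640 in stretching 1, 2 and 3. The ratio was thus higher in every rolling library, by 2.73 on the log2 scale (standard error 0.44). Most of the beta reads in stretching were those of Tubb4a, and without this gene the separation was lost. The ratio was then 6.06, 9.39 and 6.61 in rolling 1, 2 and 3 and 6.26, 4.19 and 5.17 in stretching 1, 2 and 3, a difference of 0.49 with overlap.

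**Figure D4:**
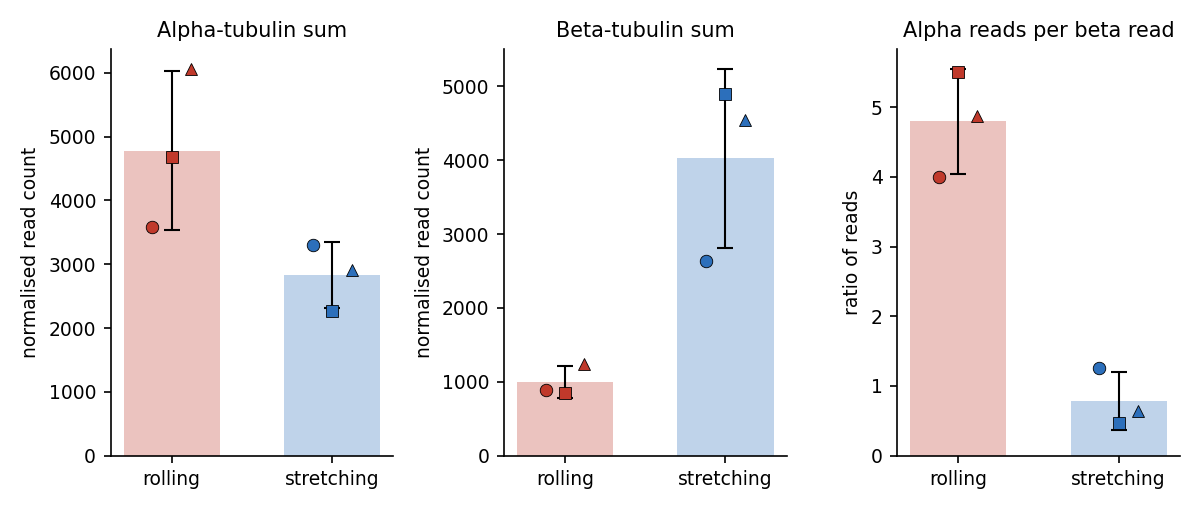
Sum of the 7 alpha-tubulin genes, sum of the 8 beta-tubulin genes (both in normalised read counts) and alpha reads per beta read; bars are group means, error bars SD (n = 3) and symbols the libraries 1 (circle), 2 (square) and 3 (triangle). The alpha sum is higher in rolling (4774 against 2830.2), the beta sum is lower (996 against 4029), and the ratio over all 8 beta genes does not overlap.

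Of 13 other tubulin symbols, 9 were tested, of which 5 rose and 3 fell, with a median log2 fold change of 1.61. These 8 of 9 stand beside the 75.2% called and the median of 0.10 over all tested features. With scaling to library totals 2 rose and 3 fell, beside 65.6% called of all tested features. Tubb4a, a neuronal and glial beta-tubulin in mammals, stood at 304, 351 and 326 in rolling 1, 2 and 3 and at 2114, 4351 and 3988 in stretching 1, 2 and 3. This gave a log2 fold change of -3.34 (standard error 0.45). Tubb4b, a beta-tubulin of cilia and many other tissues, had one of -4.93 (standard error 0.46; -4.19 with a pseudocount of 8), and neither gene's groups overlapped. Tubal3, an alpha-tubulin-like gene outside the 7, stood at 101, 158 and 373 in rolling 1, 2 and 3 and at 386, 464 and 359 in stretching 1, 2 and 3. It did not pass the test (log2 fold change -1.14, adjusted limma p 0.061), but did without rolling 3 (-1.66, adjusted limma p 0.0047) and with TMM or quantile normalization (adjusted limma p 0.033 and 0.035). Gamma-tubulin, which seeds new microtubules, was hardly counted, with 0 reads of Tubg1 and 2 of Tubg2 over all libraries.

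**Figure D5:**
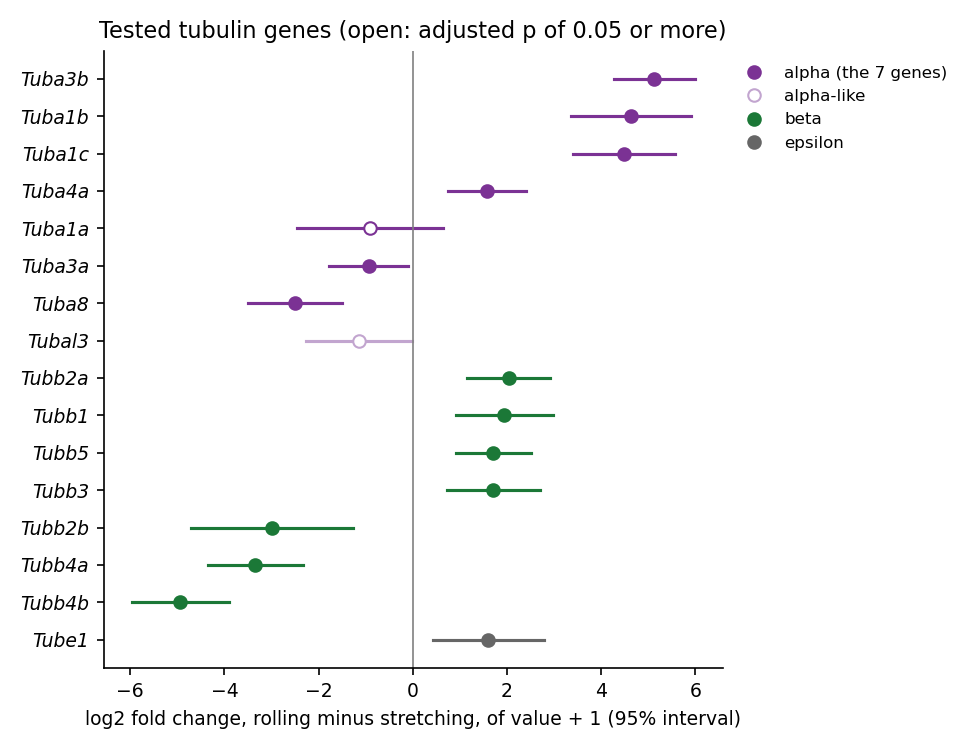
Log2 fold change, rolling minus stretching, of value + 1, with its 95% interval, for the tested alpha-, alpha-like, beta- and epsilon-tubulin genes; open circles did not pass the test. Both the alpha and the beta genes lie on both sides of 0, from 5.13 (Tuba3b) to -2.50 (Tuba8) and from 2.03 (Tubb2a) to -4.93 (Tubb4b).

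Of 27 symbols in the table for enzymes that modify tubulin, mostly at its tail, 4 were tested (14.8%, beside 12.1% of all features), of which 1 rose and 2 fell (median log2 fold change -1.77). A count of 3 called among 4 is near the 75.2% of the whole table. Without rolling 2, 1 of 5 rose and 4 fell, beside 73.2% called of all tested features. Ttll7, a ligase that adds glutamates to tubulin and in mammals acts mostly on beta-tubulin, stood at 7.91, 9.79 and 6.52 in rolling 1, 2 and 3 and at 216, 197 and 181 in stretching 1, 2 and 3, a log2 fold change of -4.46 (standard error 0.33). Ttll9, another member of this ligase family, was the opposite, with 95.4, 75.9 and 65.2 in rolling and 1.92, 11.3 and 2.22 in stretching. Its log2 fold change was 4.02 (standard error 0.57), and 4.69 without stretching 2. With a pseudocount of 8 the log2 fold changes were -3.68 for Ttll7 and 2.78 for Ttll9. Each gene reached the level for testing through its high group alone, and with no filter the adjusted limma p was 3.6e-06 for Ttll7 and 0.00015 for Ttll9. The tubulin acetylase Atat1 had 0 reads in rolling and 1 in stretching, and the tyrosine ligase Ttl had 0 and 4.

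Of 49 microtubule-associated proteins in the table, 12 were tested, of which 5 rose and 5 fell (median log2 fold change -0.98), and 10 of 12 is near the 75.2% of the whole table. Map1b, which stabilises axonal microtubules, had 150.2, 258 and 166 in rolling 1, 2 and 3 and 2.87, 11.3 and 7.75 in stretching 1, 2 and 3, a log2 fold change of 4.65 (standard error 0.48; 3.71 with a pseudocount of 8). Map4, a stabiliser in cells other than neurons, had 2.64, 3.67 and 7.61 in rolling 1, 2 and 3 and 366, 12.5 and 154 in stretching 1, 2 and 3. Stretching 2 was near the rolling values, and the log2 fold change of -4.12 (standard error 1.04) was -5.50 without it, -3.12 without stretching 1, -3.11 with a pseudocount of 8 and -5.49 by edgeR. Map1b was tested through rolling alone and Map4 through stretching alone, and with no filter the adjusted limma p was 1.8e-05 for Map1b and 0.0050 for Map4. Camsap3, which binds microtubule minus ends, had 105 reads in rolling and none in stretching and was at least 27.3-fold higher, and Eml2, a microtubule-binding protein, had none in rolling and 162 in stretching and was at least 69.4-fold lower. These bounds set 3 reads over the group without reads, and leave out counting error in the other group and the spread between libraries. Camsap3 was tested through rolling alone and Eml2 through stretching alone. With no filter the adjusted limma p was 9.9e-06 for Camsap3 and 2.6e-06 for Eml2. Both were named for a small adjusted p.

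Summed markers of cell types rich in particular tubulins stood apart between the groups in each of 4 lists, but each sum was carried by a few genes, and their part in the alpha-tubulin values was not tested. The 14 markers of sperm cells, listed because Tuba3a and Tuba3b are testis genes in mouse, summed to 6.52 to 11.0 in rolling and 83.1 to 103 in stretching. Prm1, Prm2, Tnp1 and Tnp2, the packaging proteins that define sperm nuclei, had no reads in any library, nor had Ldhc and Tssk6. The 2 tested markers, Akap4 and Zpbp, fell, both tested through stretching alone. Without them the sums overlapped, at 3.26 to 9.79 in rolling and 4.79 to 11.3 in stretching.

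The 14 neuron markers summed to 144 to 322 in rolling and 75.7 to 87.2 in stretching. A single one, Tubb3, was tested and rose, and it is itself a beta-tubulin; its call was lost with scaling to library totals (adjusted limma p 0.053). Without Tubb3 the sums overlapped, at 28.3 to 42.8 in rolling and 24.9 to 31.0 in stretching, and Uchl1 and Gap43 had no reads. Of the 14 markers, 8 had the higher mean in rolling and 4 in stretching. Among the latter was Syp, a synaptic vesicle protein too low to test, with a mean of 2.27 in rolling and 9.51 in stretching.

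The 16 muscle markers summed to 12645 to 39180.0 in rolling and 3844 to 5343 in stretching, nearly all of it Acta1, with 11833 of the 12645 in rolling 1. Without Acta1 the sums were 365 to 938 and 264 to 328, and without all 4 tested markers they overlapped, at 23.3 to 44.6 and 26.8 to 35.1. Of the 4 tested, Acta1 and Ttn rose, Myh7 and Neb did not pass the test (adjusted limma p 0.41 and 0.062), and Ckm, Mylpf and Tnni2 had no reads. The call of Acta1 was lost without stretching 1 or 3 (adjusted limma p 0.077 and 0.059), and that of Ttn without any 1 library other than rolling 2 (0.064 to 0.098) with no filter (0.063) and with scaling to library totals (0.146), while Neb passed with a pseudocount of 8 (0.045). Of the 16 markers, 8 had the higher mean in rolling and 5 in stretching. Among the latter were Actn2 and Myh1, both too low to test. The mean of Actn2 was 0.538 in rolling and 5.91 in stretching, and that of Myh1 was 2.31 and 14.7.

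The 12 markers of ciliated cells in the table summed to 112 to 186 in rolling and 215 to 289 in stretching. Without Dnah5 alone the order was the reverse with no overlap, at 107 to 179 in rolling and 36.6 to 47.0 in stretching. Of the 3 tested, each through 1 group alone, Cfap52 rose, Dnah5 fell and Dnah9 did not pass the test, and Rsph1, Tekt1 and Tekt2 had no reads. The other 9 summed to 11.95 to 22.7 in rolling and 27.7 to 32.6 in stretching.

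Among the 2764 other tested features with a functional name, the patterns most like each alpha-tubulin were ranked by the root mean square difference of log2(value + 1) over the 6 libraries, each profile first centred on its own mean. For Tuba1a the nearest were Rreb1, a zinc finger protein (0.46), Tubal3 (0.47) and Xpo4, a nuclear export receptor (0.47). Like Tuba1a, Rreb1 and Tubal3 did not pass the test with all 6 libraries (adjusted limma p 0.16 for Rreb1). Both did without rolling 3 (adjusted limma p 0.011 for Rreb1). They were picked for likeness to Tuba1a over the same libraries, so this is not a separate result. For Tuba3b they were Ttc33 (0.23), the kinase Mknk1 (0.23) and Cfap20, a protein of cilia (0.27), with 1 read or none in each stretching library. For Tuba8 they were the guanine deaminase Gda (0.070), Tnfsf15 (0.20) and the acetyltransferase Kat6a (0.23). For Tuba1b they were the neuropeptide receptor Npy2r (0.13), Acin1 (0.35) and Lman1 (0.37), and for Tuba1c Rab32 (0.23), Ipo5 (0.26) and Tmem27 (0.37). For Tuba3a they were Wdr33 (0.089), Trim27 (0.18) and Sin3a (0.19), and for Tuba4a Zdhhc5, Unc5c and Zc3h18 (0.11 to 0.12).

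These ranks rest on the pseudocount of 1. Of the 21 named neighbours, 15 were still among the nearest 3 with a pseudocount of 0.5 and 4 with a pseudocount of 8, both chosen after seeing the data. The neighbours of Tuba3b were at ranks 41 to 78 with 0.5 and 211 to 320 with 8. With a pseudocount of 8 the log2 fold change was 2.43 for Ttc33, 2.88 for Mknk1 and 2.48 for Cfap20, none of which is a bound, whereas that of Tuba3b was 4.99. With 3 reads set over the stretching libraries, Ttc33 was at least 33.0-fold and Cfap20 at least 35.3-fold higher in rolling. The rolling mean of Tuba3b was 35.5 times its stretching mean. The 4 that stayed nearest with 8 were Rreb1 for Tuba1a, Wdr33 for Tuba3a, Zc3h18 for Tuba4a and Kat6a for Tuba8, and the first 3 names of Tuba1b, Tuba1c and Tuba3b were all replaced.

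Within the family, at a pseudocount of 1, Tuba3b and Tuba8 were farthest apart, at 3.84. The gene that shares its protein with Tuba3b in mouse, Tuba3a, stood at 3.05 from it. The sources used here do not give how reads that fit more than one isotype were assigned, so the split between near-identical members (Tuba1a, Tuba1b and Tuba1c, and Tuba3a and Tuba3b) is uncertain.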

How the data were processed

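Poly(A) RNA of 6 samples was sequenced after Trizol extraction, per the labels' protocols. The deposited table holds 1 signal value per feature and sample, the number of reads divided by a size factor of that sample. The submitters' processing notes name BWA, DESeq2 and mm10 but give neither versions nor roles. The counting program and the annotation were not given in the sources used here. Per the file headers, further columns deposited by the authors hold their log2 fold change, its standard error, a test score, and p-values before and after adjustment. The meaning of the header words curl and strait assigned columns to rolling and stretching, and their number was taken as the replicate.

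Division of each column by its smallest value above 0 gave whole reads for 100.0% of values (largest deviation 1.0e-09). Features with a mean of at least 10 (2948) were tested two-sided on log2(value + 1), using limma 3.58.1 (R 4.3.3) and its mean-variance trend. Fold changes are rolling minus stretching and understate changes of low features. These steps were tested on simulated data with 50 changed features for each fold. Of 2-fold changes 4.0% were called, of 4-fold changes 58.0%, of 8-fold changes 92.0% and of 16-fold changes 100.0%. Of unchanged features 0.18% were called. Most changes near 2-fold were thus missed in the simulation. It left 2748 of 2948 features unchanged, whereas 75.2% were called in the data. With fewer changed features the adjustment is stricter, so these rates need not hold for the data. Alternatives were other pseudocounts, filters and scalings, DESeq2 1.42.0 and edgeR 4.0.16 on the recovered reads, a replicate block, and each library left out. DESeq2 on these reads called 3951 features and edgeR 2244. Members and gene lists were chosen with earlier results of these data known. Named beside the 7 genes are, of each list, the 2 tested genes with the highest mean and up to 2 called genes with the smallest adjusted p, and the 3 nearest profiles of each of the 7. Marker genes are named where tested or without reads, and Atat1, Ttl, Tubg1, Tubg2, Tubb2a, Syp, Actn2 and Myh1 were named outside this rule, after their values were seen. No sequences were used here.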

Additional observations from a re-analysis of the deposited data

How the results depend on the processing

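The direction of each of the 7 alpha-tubulin fold changes was the same in its 16 alternatives. Tuba1b, Tuba1c, Tuba3b and Tuba8 passed the test in 16 of 16 (Tuba1b and Tuba1c reach the filter through rolling alone, except where none is applied), Tuba4a in 15, Tuba3a in 8 and Tuba1a in 1. Tuba4a was 1.39 with scaling to library totals (adjusted limma p 0.071). Tuba3a lost its call without the filter (-0.94), with scaling to library totals (-1.12) and with DESeq2 (-0.92). With 1 library left out the log2 fold change of Tuba3a ranged from -1.10 to -0.69 and that of Tuba1a from -1.76 to -0.39. The alpha-tubulin sum reversed to -0.15 without Tuba3a and Tuba3b, was 0.65 with TMM scaling and 0.55 with library totals, and ranged from 0.55 to 0.93 with 1 library left out. The alpha to beta ratio was 0.49 without Tubb4a. The median of all tested features was 0.10, and -0.04 with TMM scaling and -0.07 with library totals.

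The number of called features was 2217, and 5773 without the filter, 284 with a minimum mean of 100 (323 features tested) and 3951 with DESeq2. Without the filter 31.6% of all features with a read were called. The counts were then 3 of 18 folding genes, 7 of 25 modifying enzymes and 18 of 47 microtubule-associated genes. With DESeq2 2 of 7 folding genes were called, beside 37.2% of all features with an adjusted p. With the minimum mean of 100 the counts were 4 other tubulins, 1 modifying enzyme and 0 microtubule-associated genes, none of which was then tested. Other tubulins called numbered 5 of 9 with library totals, beside 65.6% of all tested features. Modifying enzymes called ranged from 2 to 5 with 1 library left out. The 2 were of 3 tested without stretching 2, beside 71.1% of all tested features. The 5 were of 5 tested without rolling 2, beside 73.2%. Deviations from the group means had correlations of 0.021, -0.0066 and 0.0087 between samples of the same number, and of -0.034 to 0.024 otherwise. Correlations this low cannot show that samples of the same number had nothing else in common, and the labels do not say. With the number as a replicate block 2224 features were called and Tuba3a, at -0.94, was not (adjusted limma p 0.069). The causes of these differences were not tested, except that the filters change which features are tested. Stretching values of Tuba1b and Tuba1c rest on 25 reads each, which limits their folds.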

Other observations

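In the list of 22 genes that fold tubulin, which holds the subunits of the cytosolic chaperonin, prefoldin and the tubulin cofactors, 229 reads were counted over the 6 libraries, while the 7 alpha-tubulins had 24278. Of the 22, 4 had no read (Cct2, Pfdn2, Pfdn6 and Tbcb), which is 18.2% beside 25.2% of all features in the table. None reached the level for testing, which 12.1% of all features did, so neither count sets this list apart from the table. The highest mean was that of Tcp1, a chaperonin subunit, at 8.98, with 24 reads in rolling and 35 in stretching. Some members had reads in one group almost alone. Tbce, a cofactor that acts on alpha-tubulin, had 0 reads in rolling and 24 in stretching, Arl2 had 26 and 2, and Tbcel had 25 and 1. These 3 were picked after their values were seen.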
